A study of Homo sapiens with 6 samples.

Results

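The genes described here belong to the aryl hydrocarbon receptor (AHR) pathway. A list of 8 gene names defined the set. They were the receptor AHR, its partner ARNT, the target genes CYP1A1, CYP1B1, TIPARP and NQO1, the repressor AHRR, and RMDN2-AS1. RMDN2-AS1 is the name of an RNA gene, and the interval counted under it lies beside CYP1B1. The list was selected on results of these same libraries, so the members' values are given as a description with no p-value. All 8 names were found, AHRR in 2 intervals, which gave 9 of the 20333 gene intervals in the deposited table. All 9 passed the filter on low counts, as did 19902 intervals in all. Nascent transcription was measured by PRO-seq, which labels and sequences the RNA that engaged polymerases are making in permeabilised cells. T47D cells were used, an established line of luminal breast cancer, positive for the estrogen receptor and HER2-negative, grown in medium with all growth factors. They received DMSO (the solvent), 500 nM GDC0068 (ipatasertib, an inhibitor of AKT kinase activity) or 100 nM INY-05-040 (a compound that degrades AKT proteins, called Degrader here) for 5 h. Each of these 3 arms had 2 libraries, 1 from each of 2 independent experiments. The drug doses differed, and the series text gives them as doses of comparable effect on signalling below AKT.

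AHR is a ligand-activated transcription factor of the bHLH-PAS family. Without ligand it is held in the cytoplasm by a complex with HSP90. With a ligand, such as dioxin or a tryptophan metabolite, it enters the nucleus, pairs with ARNT and binds short DNA motifs called dioxin response elements. CYP1A1 and CYP1B1, cytochrome P450 enzymes that oxidise aromatic hydrocarbons and estrogens, are the classic targets, and in breast cells both take part in estrogen hydroxylation. AHRR competes with AHR for ARNT, and TIPARP (PARP7) ADP-ribosylates AHR, so both act as feedback inhibitors. NQO1, a quinone reductase, is a target of AHR and of the oxidative stress factor NRF2.

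Promoter sequences of 6 members were at hand from RefSeq (assembly GRCh38.p14), each running from 250 bases before to 50 bases after the annotated start. They are shown for CYP1A1, the member with the largest ratio under Degrader, and for the feedback genes AHRR and TIPARP, with the letters GCGTG, the core of the dioxin response element, in capitals (CACGC where the core is on the other strand). Their positions are chr15:74725479-74725778 on the minus strand, chr5:321464-321763 on the plus strand and chr3:156674340-156674639 on the plus strand.

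CYP1A1: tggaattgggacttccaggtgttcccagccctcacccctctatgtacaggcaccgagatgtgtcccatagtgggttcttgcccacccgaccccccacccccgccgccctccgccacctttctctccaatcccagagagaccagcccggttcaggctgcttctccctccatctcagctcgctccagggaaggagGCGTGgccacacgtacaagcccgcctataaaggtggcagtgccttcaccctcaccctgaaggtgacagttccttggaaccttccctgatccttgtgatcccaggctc

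AHRR: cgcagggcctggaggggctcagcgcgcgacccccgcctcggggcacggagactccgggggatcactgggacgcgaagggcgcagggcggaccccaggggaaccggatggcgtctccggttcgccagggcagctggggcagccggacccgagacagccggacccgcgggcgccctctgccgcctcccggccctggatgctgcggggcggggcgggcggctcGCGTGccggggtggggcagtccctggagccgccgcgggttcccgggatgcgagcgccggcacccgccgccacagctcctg

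TIPARP: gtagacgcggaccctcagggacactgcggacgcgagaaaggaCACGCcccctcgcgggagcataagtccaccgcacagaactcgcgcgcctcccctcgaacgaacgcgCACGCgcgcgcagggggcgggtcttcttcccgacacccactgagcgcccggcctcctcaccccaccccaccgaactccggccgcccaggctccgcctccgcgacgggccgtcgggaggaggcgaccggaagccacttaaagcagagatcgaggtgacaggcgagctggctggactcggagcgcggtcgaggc

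Counting the first transcribed base as 1, the core lay at -57 to -53 in CYP1A1, at -30 to -26 in AHRR, and at -208 to -204 and -142 to -138 on the other strand of TIPARP. AHR held it at 38 to 42, NQO1 at 2 to 6 on the other strand, and ARNT held none in this window. With both strands searched, 36.5% of 35116 promoters of this length held GCGTG. The longer form TNGCGTG, which contains the core, was found in AHRR and NQO1 and in 5.51% of promoters. The antioxidant response element core TGACNNNGC, the motif of NRF2, was found in ARNT and in 13.3% of promoters, and not in the NQO1 window. A match is a description of letters, not of binding.

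Libraries held 25371819 to 32192576 counts in gene intervals. Markers of the luminal line were present: all 11 on the list were tested, with means in DMSO of 1201 CPM (counts scaled to library size) for ESR1 and 1358 CPM for GATA3. Of the 11, 1 (PGR) passed the test under Degrader (3 rose and 2 fell with the replicate block). The share of all genes that passed was 15.3% (30.7% with the block). The 12 markers of other cell types were not matched to an interval and are not analysed here. In bulk libraries, more transcribing cells and more transcription per cell cannot be told apart.

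Under Degrader, 8 of the 9 intervals were higher than in DMSO within both replicate numbers, and AHR alone was lower in both. CYP1A1 had the largest ratio, near 2.3-fold, followed by RMDN2-AS1 and CYP1B1 in both experiments. Over all genes tested, 37.4% were higher and 37.5% lower in both replicate numbers. The members' median log2 fold change was 0.22, against -0.00 for all genes. In the edgeR fit with a term per arm, 1 of the 9 was called higher at an adjusted p under 0.05 (TIPARP), where 15.3% of all genes were called in either direction. With the replicate number as a block, 6 were called higher (CYP1A1, CYP1B1, RMDN2-AS1, ARNT, TIPARP and NQO1), where 30.7% of all genes were called. The members were chosen from these values, so nothing is read from these counts, nor from the members' calls below. Both Degrader libraries lay outside both DMSO libraries for 5 members (long AHRR, ARNT, TIPARP and NQO1 higher, AHR lower), as they did for 58.6% of all genes. Between GDC0068 and DMSO 50.1% of all genes did not overlap, and between Degrader and GDC0068 45% did not.

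**Figure D1:**
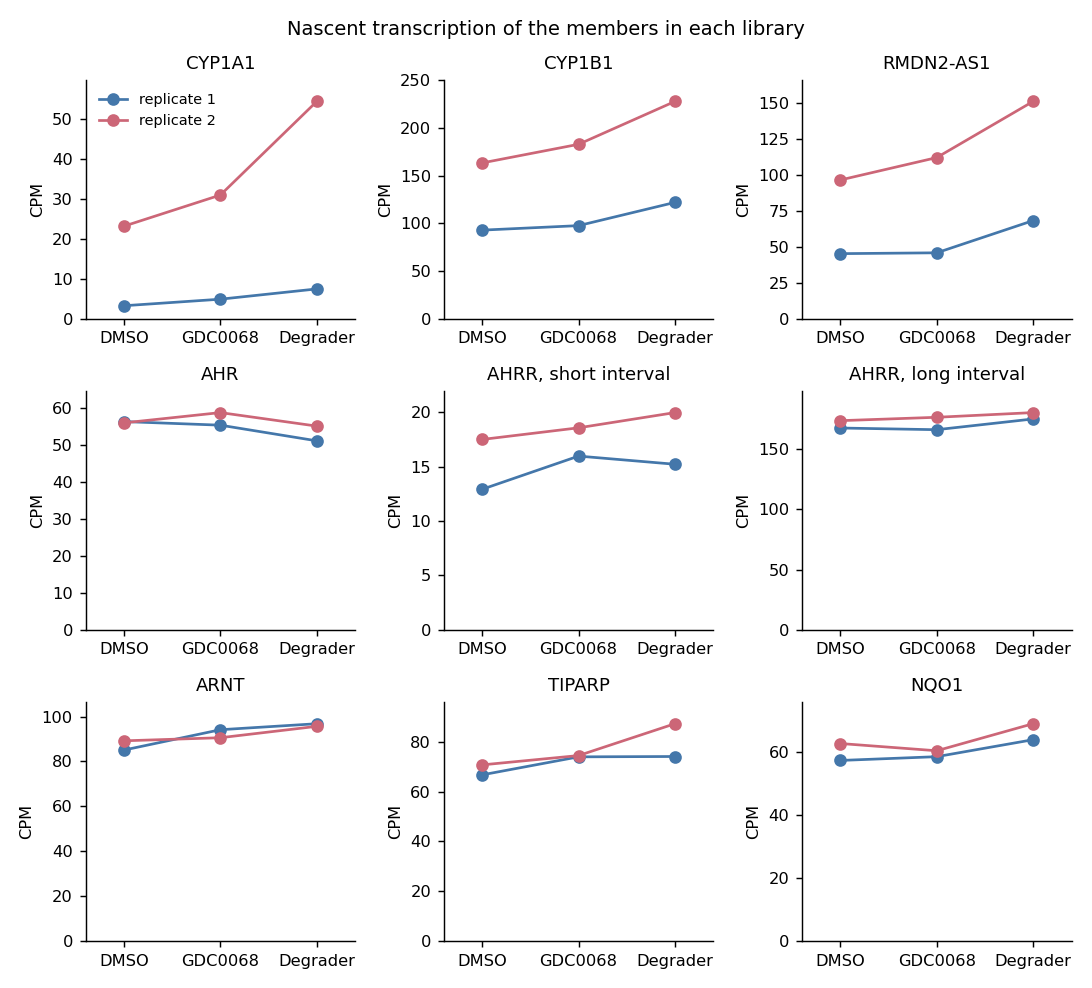
Level of each member (y axis, CPM, from 0) in DMSO, GDC0068 and Degrader (x axis), with 1 point per library and a line joining the libraries of a replicate number. For CYP1A1, CYP1B1 and RMDN2-AS1 the replicate 2 line lies above the replicate 1 line in every arm, and both lines are highest at Degrader.

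CYP1A1 (ENSG00000140465, chr15:74719542-74725528, minus strand) oxidises polycyclic aromatic hydrocarbons and is the usual readout of AHR activity. Interval coordinates are those of the deposited table, which for CYP1A1 and CYP1B1 equal RefSeq's on GRCh38.p14. In replicate 1 its level was 3.24 CPM in DMSO, 4.88 CPM in GDC0068 and 7.45 CPM in Degrader. In replicate 2 it was 23.2, 31.0 and 54.5 CPM. These rest on 104, 124 and 214 counts in replicate 1 and on 631, 943 and 1587 in replicate 2. The order of the arms was the same in both experiments, but every replicate 2 library exceeded every replicate 1 library, so the arms overlapped.

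The ratio of Degrader to DMSO for CYP1A1 was 2.30 in replicate 1 and 2.35 in replicate 2. On the log2 scale these are 1.20 (counting SE 0.173) and 1.23 (counting SE 0.0679), so they differed by less than counting error. The absolute difference did not repeat in this way, at 4.21 CPM in replicate 1 and 31.3 CPM in replicate 2. The fitted log2 fold change was 1.26 (SE 0.893, n = 2 libraries per arm) without the block and 1.22 (SE 0.0911) with it. Without the block, leaving out single libraries moved this value from -0.80 (without Degrader replicate 2) to 3.26 (without DMSO replicate 2). Such a fit sets a library of 1 experiment against libraries of both, so the difference between experiments enters the value. The same holds below for every unblocked value with a library of a compared arm left out.

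**Figure D2:**
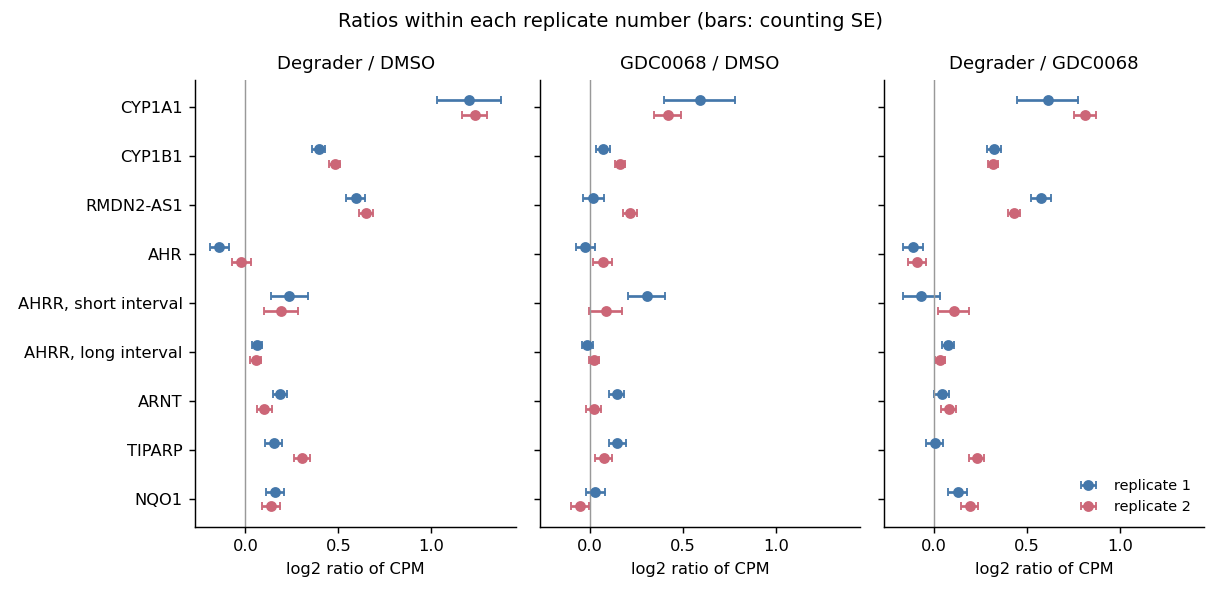
Log2 ratio of CPM (x axis) for each member (y axis) between arms of the same replicate number, for Degrader over DMSO, GDC0068 over DMSO and Degrader over GDC0068, with bars of 1 counting SE. The CYP1A1 ratios of Degrader over DMSO lie at 1.20 and 1.23, and the AHR ratios are the ones below 0 in that panel.

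CYP1B1 (ENSG00000138061, chr2:38067509-38076151, minus strand) is the P450 of this family that hydroxylates estradiol at its 4-position in breast tissue. Its level was 92.8 CPM in DMSO, 97.5 CPM in GDC0068 and 122 CPM in Degrader in replicate 1, and 163, 183 and 228 CPM in replicate 2. As for CYP1A1, Degrader was highest within each experiment and every replicate 2 library exceeded every replicate 1 library. The Degrader to DMSO ratio was 1.31 in replicate 1 and 1.39 in replicate 2, with a fitted log2 change of 0.45 (SE 0.314) and of 0.44 (SE 0.0356) with the block. Without the block, leaving out 1 library moved this value from -0.075 (without Degrader replicate 2) to 0.91 (without DMSO replicate 2).

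RMDN2-AS1 (ENSG00000235848, chr2:38035888-38066755, minus strand) has an interval that begins 753 bp past the end of CYP1B1 on the same strand. In RefSeq the gene of this name lies at chr2:37950334-38036341 and overlaps the counted interval only at that interval's far end, so the name stands here for the interval. Its level was 45.2, 45.7 and 68.1 CPM in DMSO, GDC0068 and Degrader of replicate 1, and 96.3, 112 and 151 CPM in replicate 2. Only the Degrader library stood apart in replicate 1, where GDC0068 lay at the DMSO level. The Degrader to DMSO ratio was 1.51 and 1.57, and the fitted log2 fold change was 0.64 (SE 0.417; 0.62, SE 0.0441, with the block). Leaving out 1 library moved the unblocked value from -0.05 (without Degrader replicate 2) to 1.28 (without DMSO replicate 2).

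Per kb of interval, RMDN2-AS1 stood at 0.131 to 0.186 of CYP1B1 over the 6 libraries. In each replicate number that share was highest in Degrader, at 0.157 and 0.186, against 0.136 and 0.165 in DMSO. Whether polymerases that run past the end of CYP1B1 enter the RMDN2-AS1 count was not tested. On the opposite strand, CYP1B1-AS1 starts 1028 bp from the CYP1B1 start and runs away from it. Its level was 55.1 and 79.8 CPM in DMSO and 72.2 and 106 CPM in Degrader, a log2 change of 0.40 (SE 0.204, edgeR adjusted p = 0.212; 2.76e-08 with the replicate block). RMDN2, whose interval ends 49971 bp past CYP1B1 on the opposite strand, had a log2 change of 0.10 (SE 0.0894, edgeR adjusted p = 0.504; 0.393 with the replicate block). CYP1B1-AS1 and RMDN2 are described as intervals within 50 kb of CYP1B1 and were not on any list.

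**Figure D3:**
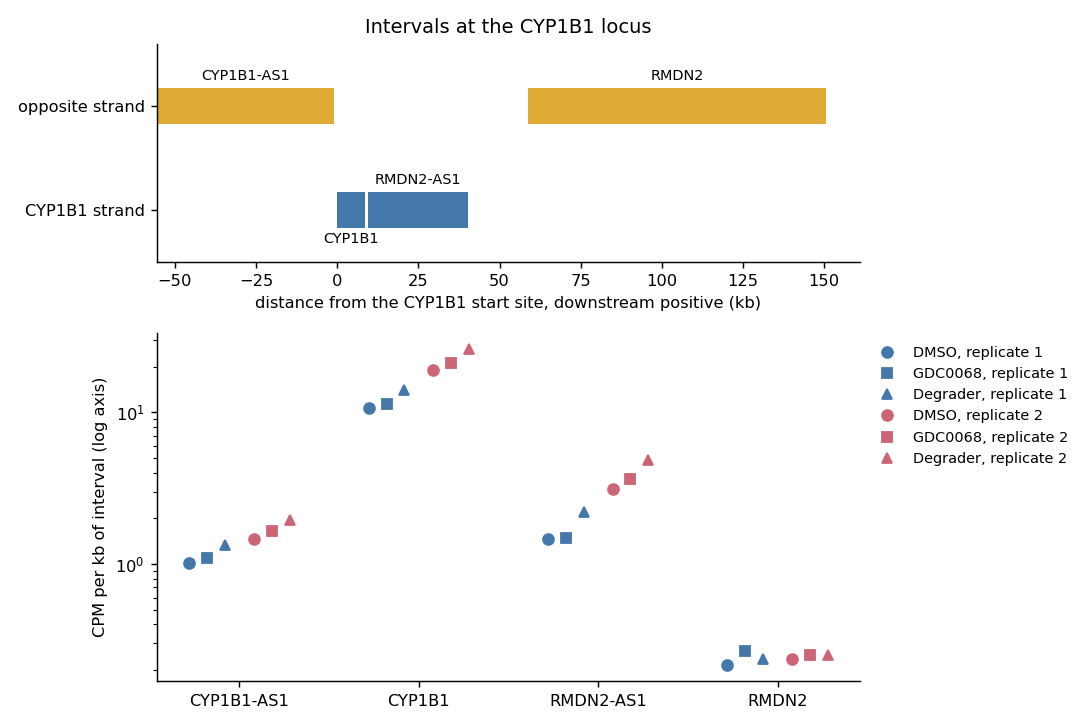
Upper panel, intervals at the CYP1B1 locus by distance from the CYP1B1 start (x axis, kb, downstream positive) and strand. Lower panel, level of each interval per kb of its length (y axis, CPM per kb, log axis) with 1 point per library; in CYP1B1-AS1, CYP1B1 and RMDN2-AS1 the Degrader triangle is the highest of its replicate number, and in RMDN2 it is not.

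TIPARP (ENSG00000163659, chr3:156674614-156706770, plus strand) stood at 66.8 and 70.8 CPM in DMSO, 74.1 and 74.6 CPM in GDC0068 and 74.2 and 87.4 CPM in Degrader (replicates 1 and 2). The highest value was that of Degrader replicate 2, and both DMSO libraries lay below the other 4. The Degrader to DMSO ratio was 1.11 in replicate 1 and 1.23 in replicate 2, and the fitted log2 fold change was 0.23 (SE 0.0716). The value was 0.10 without Degrader replicate 2, where the call was lost. The call was also lost without either DMSO library, without either GDC0068 library, with DESeq2, with library totals and in a fit to the 4 libraries compared, while the value there stayed between 0.19 and 0.27.

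AHRR was counted in 2 intervals on the plus strand that share their bases, so reads in the shared part cannot be assigned to one. The short one (ENSG00000063438, chr5:321756-367992) lies inside the long one (ENSG00000286169, chr5:304988-438291), which also shares 9987 bases with PDCD6. The short interval stood at 12.9 and 17.5 CPM in DMSO, 16.0 and 18.6 CPM in GDC0068 and 15.2 and 20.0 CPM in Degrader (replicates 1 and 2). Its Degrader to DMSO ratio was 1.18 and 1.14, a log2 change of 0.22 (SE 0.157), and the arms overlapped. That value ran from -0.00 (without Degrader replicate 2) to 0.45 (without DMSO replicate 2). The long interval stood at 167 and 174 CPM in DMSO, 166 and 176 CPM in GDC0068 and 175 and 180 CPM in Degrader, with a log2 change of 0.06 (SE 0.0512). Counts of the short interval equalled 7.72% to 11.1% of those of the long one. PDCD6 had a mean of 166 CPM in DMSO and a log2 change of -0.09 (SE 0.0625, edgeR adjusted p = 0.346; 0.0378 with the replicate block).

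AHR itself (ENSG00000106546, chr7:17298622-17346147, plus strand) stood at 56.4 and 56.1 CPM in DMSO, 55.4 and 58.8 CPM in GDC0068 and 51.2 and 55.2 CPM in Degrader. Both Degrader libraries lay below the other 4, by little in replicate 2. The Degrader to DMSO ratio was 0.908 in replicate 1 and 0.984 in replicate 2, and the log2 fold change was -0.08 (SE 0.0598). Of its bases, 47090 also belong to AC019117.4, an interval on the same strand with a mean of 51.0 CPM in DMSO. AHR counts were 1.123 and 1.084 times those of AC019117.4 in DMSO, 1.145 and 1.081 times in GDC0068 and 1.004 and 0.9895 times in Degrader. How reads in the shared bases were assigned is not given, and its part in the AHR values was not tested. AC019117.4 had a log2 change of 0.07 (SE 0.0696, edgeR adjusted p = 0.568; 0.371 with the replicate block).

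ARNT (ENSG00000143437, chr1:150809713-150876598, minus strand), the partner AHR needs to bind DNA, stood at 85.1 and 89.2 CPM in DMSO, 94.1 and 90.6 CPM in GDC0068 and 96.8 and 95.6 CPM in Degrader. The 3 arms did not overlap, with DMSO lowest and Degrader highest. Over all genes, 58.6% did not overlap between Degrader and DMSO, 50.1% between GDC0068 and DMSO and 45% between Degrader and GDC0068. The Degrader to DMSO ratio was 1.14 in replicate 1 and 1.07 in replicate 2, and the log2 fold change was 0.14 (SE 0.0506).

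NQO1 (ENSG00000181019, chr16:69710962-69726560, minus strand) stood at 57.3 and 62.7 CPM in DMSO, 58.5 and 60.4 CPM in GDC0068 and 63.9 and 69.0 CPM in Degrader. Both Degrader libraries lay above the other 4, and the GDC0068 libraries lay between the DMSO libraries. The Degrader to DMSO ratio was 1.12 and 1.10, and the log2 fold change was 0.15 (SE 0.0626).

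GDC0068 against DMSO gave smaller ratios than Degrader for CYP1A1, CYP1B1 and RMDN2-AS1 in both experiments. CYP1A1 was 1.51-fold higher in replicate 1 and 1.34-fold higher in replicate 2, a log2 change of 0.50 (SE 0.919; 0.46, SE 0.0965, with the block). The unblocked value was -1.41 when GDC0068 replicate 2 was left out and 2.49 when DMSO replicate 2 was left out. For CYP1B1 the same settings gave -0.40 and 0.60, and for RMDN2-AS1 -0.63 and 0.81. These fits too mix the 2 experiments. CYP1B1 was at 1.05 and 1.12 times DMSO, and RMDN2-AS1 at 1.01 and 1.16 times. TIPARP was at 1.11 and 1.05 times DMSO, ARNT at 1.11 and 1.02 times, and the short AHRR interval at 1.24 and 1.06 times. AHR, the long AHRR interval and NQO1 lay on different sides of DMSO in the 2 experiments. No member was called (0 of 9 with edgeR, 0 at an unadjusted p under 0.05, 0 with DESeq2), where 3.58% of all genes were called. At an unadjusted edgeR p under 0.05, 3972 of all 19902 genes passed. With the replicate block 3 were called higher (CYP1A1, CYP1B1 and RMDN2-AS1), where 17.8% of all genes were called. Both comparisons with DMSO share the same control libraries.

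Degrader and GDC0068, at their different doses, were set side by side within each experiment. CYP1A1 was 1.53-fold and 1.76-fold higher under Degrader than under GDC0068, CYP1B1 1.25-fold in both, and RMDN2-AS1 1.49-fold and 1.35-fold. The fitted log2 differences were 0.76 (SE 0.863), 0.31 (SE 0.313) and 0.46 (SE 0.414), and with the block their standard errors were 0.0881, 0.0356 and 0.0439. The unblocked differences turned sign without Degrader replicate 2 (-1.30, -0.21 and -0.22) and were 2.67, 0.85 and 1.27 without GDC0068 replicate 2. These fits ignore the pairing and set a library of 1 experiment against libraries of both. Within each experiment these genes were all higher under Degrader. NQO1 was 1.09-fold and 1.14-fold higher. TIPARP was level in replicate 1 at 1.00 and 1.17-fold higher in replicate 2, and its fitted difference of 0.12 was -0.01 without Degrader replicate 2. AHR was lower under Degrader in both, with a log2 difference of -0.10 (SE 0.06). Its libraries did not overlap between these arms, as was so for 45% of all genes. The short AHRR interval was at 0.953 and 1.08 times GDC0068. No member was called (0 of 9 with edgeR, 1 at an unadjusted p under 0.05, 0 with DESeq2), where 0.266% of all genes were called. At an unadjusted edgeR p under 0.05, 2811 of all 19902 genes passed. With the replicate block 4 were called higher (CYP1A1, CYP1B1, RMDN2-AS1 and NQO1), where 10.4% of all genes were called.

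CYP1A1, RMDN2-AS1 and CYP1B1 differed more between the 2 experiments than between the arms. CYP1A1 was 7.17-fold higher in replicate 2 than in replicate 1 in DMSO, 6.36-fold in GDC0068 and 7.31-fold in Degrader. For RMDN2-AS1 the 3 ratios were 2.13, 2.45 and 2.22, and for CYP1B1 they were 1.76, 1.87 and 1.87. What differed between the experiments is not given in the labels, and its part in these values was not tested.

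The replicate term of the blocked edgeR fit, examined after the members' counts had been seen, placed these genes among all 19902. CYP1A1 had the highest replicate 2 over replicate 1 value of all (log2 2.80), and it ranked 3 with DESeq2 and 4 with no filter on low counts. DESeq2 too was run without that filter, so ranks from both settings also count intervals outside the 19902. RMDN2-AS1 ranked 6 (1.17), CYP1B1 16 (0.88) and the short AHRR interval 329 (0.35). These ranks moved with the setting: RMDN2-AS1 ranked 36 with DESeq2, 27 with no filter and 21 without either GDC0068 library, CYP1B1 ranked 70, 51 and 45 there, and short AHRR ranked as low as 634 (without DMSO replicate 2). These 4 members were called higher in replicate 2, where 7.97% of all genes were called in either direction. The members were chosen with results of these libraries known, so their ranks and calls here are description only. The other members lay between -0.00 (ARNT) and 0.11 (TIPARP). The neighbour CYP1B1-AS1 stood at 0.56 (edgeR adjusted p = 4.92e-12) and RMDN2 at 0.05 (edgeR adjusted p = 0.736).

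**Figure D4:**
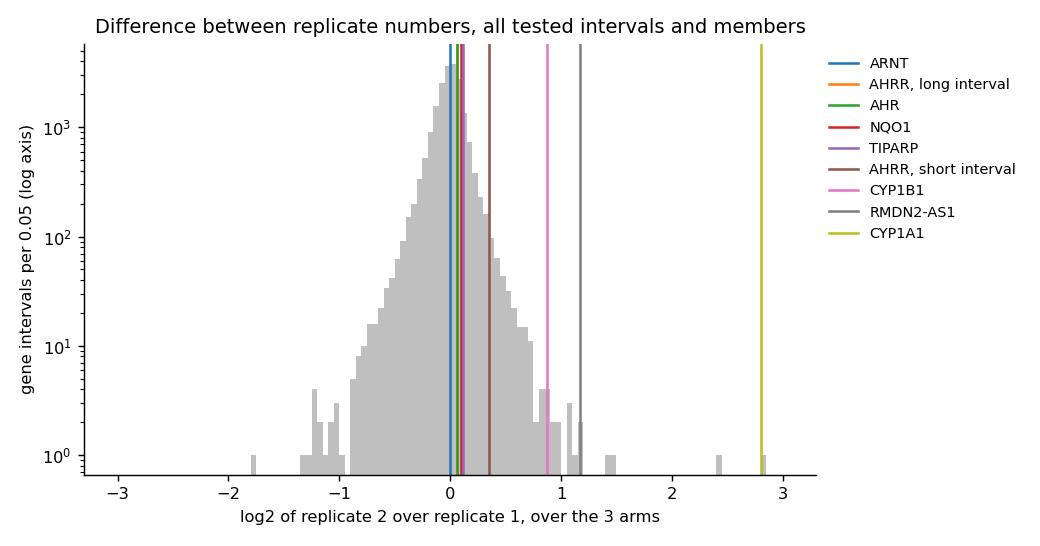
Number of gene intervals (y axis, log axis) by log2 of replicate 2 over replicate 1 from the replicate term of the blocked fit (x axis), with a coloured line for each member. CYP1A1 lies at 2.80, the far right of the distribution, and RMDN2-AS1 and CYP1B1 at 1.17 and 0.88, while ARNT, AHR, NQO1, TIPARP and the long AHRR interval lie between -0.00 and 0.11.

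Per kb of interval, CYP1B1 had the highest level in DMSO (mean 14.8 CPM per kb), followed by NQO1 at 3.85 CPM per kb. RMDN2-AS1 (2.29), CYP1A1 (2.21) and TIPARP (2.14 CPM per kb) came next, and their ranges overlapped with each other. The range of CYP1A1 also overlapped that of NQO1. The place of CYP1A1 depended on the experiment: it stood at 0.541 CPM per kb in replicate 1, below ARNT, AHR and the long AHRR interval, and at 3.87 CPM per kb in replicate 2, above RMDN2-AS1 at 3.12 CPM per kb. ARNT (1.30) and the long AHRR interval (1.28 CPM per kb) overlapped, AHR followed at 1.18 and the short AHRR interval was lowest at 0.329 CPM per kb. Under Degrader, CYP1A1 had a mean of 5.17 CPM per kb, from 1.25 in replicate 1 to 9.09 in replicate 2. That range overlapped NQO1, which had a mean of 4.26 CPM per kb.

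The genes whose pattern over the 6 libraries lay closest to CYP1A1 were CDC20B, RMDN2-AS1 and FOXJ1, at Euclidean distances of 1.90, 2.06 and 2.13 in centred log2 CPM, where CYP1A1 itself lay 3.61 from a flat profile. Closeness was measured over the 18924 genes whose mean level was 1 CPM or more. Closest to CYP1B1 (1.16 from flat) were AC139769.3 (0.214), MIR181A1HG (0.325) and NEDD9 (0.326). AC139769.3 had 36 to 88 counts per library, and the counting SE of its log2 ratios between arms was 0.221 to 0.323. The part of counting error in its place was not tested. Closest to TIPARP (0.288 from flat) were CENPBD1P1 (0.0605), PSMG1 (0.0736) and H2AW (0.0767). Both CDC20B and FOXJ1 were higher in replicate 2 in every arm: CDC20B stood at 14.7, 17.0 and 16.9 CPM in DMSO, GDC0068 and Degrader of replicate 1 and at 37.5, 44.4 and 49.3 CPM in replicate 2.

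Around the receptor, genes of its cytoplasmic complex and its nuclear cofactors moved in both directions under Degrader. Of 16 tested, 3 rose and 1 fell (6 and 5 with the replicate block), with a median log2 fold change of -0.01. The shares of all genes called were 15.3% under Degrader and 3.58% under GDC0068 (30.7% and 17.8% with the block). They are the background for every list count below, and no list was tested as a set. CUL4B, a ubiquitin ligase scaffold with which AHR can act, rose from 24.6 ± 1.43 to 38.2 ± 2.07 CPM (SD, n = 2), a log2 change of 0.64 (SE 0.083, edgeR adjusted p = 7.37e-04). HSP90AB1, the chaperone that holds the unliganded receptor, fell by 0.30 on the log2 scale (SE 0.0499, edgeR adjusted p = 0.00281). NRIP1, a nuclear receptor corepressor, rose by 0.24 (edgeR adjusted p = 0.0103), and RB1 rose by 0.19 (edgeR adjusted p = 0.0301). The NRIP1 call was lost without DMSO replicate 2 (log2 0.20, edgeR adjusted p = 0.0864) and without either Degrader library (0.21 and 0.27). The RB1 call was lost without DMSO replicate 1 (log2 0.15, edgeR adjusted p = 0.236), without either Degrader library (0.20 and 0.17) and with DESeq2. Under GDC0068 none of the 16 was called with edgeR or DESeq2, and with the replicate block 2 rose and 4 fell. At an unadjusted edgeR p under 0.05, 6 of the 16 passed, where 3972 of all 19902 genes did.

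Of 9 other genes described as AHR targets, 3 rose under Degrader and none fell (5 and 1 with the replicate block), with a median log2 fold change of 0.14. Over all genes, 15.3% were called under Degrader (30.7% with the block), so nothing is read from a count over so few genes. CDKN1B, the cell cycle inhibitor p27, rose by 0.49 (SE 0.0733, edgeR adjusted p = 0.00158) from 24.5 ± 0.78 to 34.4 ± 0.889 CPM (SD, n = 2). SCIN, an actin-severing protein, rose by 0.45 (SE 0.0799, edgeR adjusted p = 0.0038). VAV3, a guanine nucleotide exchange factor, rose by 0.35 (SE 0.0618, edgeR adjusted p = 0.00382). The SCIN and VAV3 calls were lost without DMSO replicate 1 (log2 0.39 and 0.31) and without Degrader replicate 2 (0.38 and 0.30). CDKN1B is also a textbook target of FOXO factors, which AKT restrains. NFE2L2, which encodes NRF2, had a log2 change of 0.14 (edgeR adjusted p = 0.408; 0.0048 with the replicate block). HES1, a Notch target, was at 0.10 under Degrader (edgeR adjusted p = 0.298). Under GDC0068 it rose by 0.75 (SE 0.0612, edgeR adjusted p = 3.42e-04), from 140 ± 3.19 to 236 ± 5.11 CPM (SD, n = 2). HES1 differed between the drugs by -0.65 for Degrader against GDC0068 (edgeR adjusted p = 0.00177), opposite in sign to CYP1A1, CYP1B1 and RMDN2-AS1. It was the only gene of the 6 lists called between the drugs with edgeR without the block and with DESeq2. With the replicate block more were called, in both directions. Among those higher under Degrader were KYNU (edgeR adjusted p = 2.4e-07), VAV3 (6.16e-04) and CUL4B (0.00114). Among those lower were SULT1A1 (edgeR adjusted p = 0.00927), HSP90AB1 (0.0103), SRXN1 (0.0247) and ABCC1 (0.0331). Higher and lower calls were 3 and 1 for the complex, 4 and 1 for these targets and 2 and 1 for the bHLH-PAS family. They were 3 and 3 for the NRF2 pathway, 1 and 0 for kynurenine and tryptophan, and 0 and 2 for P450 partners. CYP1A2, ALDH3A1 and UGT1A6 were not matched to an interval and are not analysed here.

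In the replicate term, 3 of these 9 targets were called higher in replicate 2 and none lower, where 7.97% of all genes were called in either direction. These were SLC7A5 by 0.33 (edgeR adjusted p = 4.72e-08), NFE2L2 by 0.26 (edgeR adjusted p = 1.61e-06) and VAV3 by 0.09 (edgeR adjusted p = 0.0463). SLC7A5, an amino acid transporter that carries tryptophan and kynurenine, was named after its values were seen. All 3 values lay below those of CYP1A1, CYP1B1 and RMDN2-AS1. The other lists held such calls too, with 1 higher and 0 lower of 16 for the complex and cofactors. Higher and lower calls were 0 and 3 of 14 for the bHLH-PAS family and 2 and 3 of 20 for the NRF2 pathway. They were 2 and 0 of 6 for kynurenine and tryptophan, and 0 and 2 of 7 for P450 partners.

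Of 14 tested relatives in the bHLH-PAS family, 1 rose and 1 fell under Degrader (4 and 3 with the replicate block). The shares of all genes called were 15.3% under Degrader and 3.58% under GDC0068 (30.7% and 17.8% with the block). NPAS1, a neuronal member of the family, rose by 0.46 (SE 0.0582, edgeR adjusted p = 6.18e-04). PER2, a repressor of the circadian clock, fell by 0.21 (SE 0.0561, edgeR adjusted p = 0.0265), a call lost when any 1 of the DMSO and Degrader libraries was left out (log2 -0.25 to -0.18). NPAS1 also rose under GDC0068, by 0.24 (edgeR adjusted p = 0.0455). That call was lost when any 1 of the 6 libraries was left out (log2 0.21 to 0.27), with DESeq2 and in the fit to the 4 libraries compared. Under GDC0068, 1 of the 14 rose and none fell (3 and 2 with the replicate block). ARNT2, the paralog of ARNT, was not matched to an interval and is not analysed here.

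Genes of the NRF2 pathway, which shares NQO1 with AHR, moved in both directions. Of 20 tested, 2 rose and 4 fell under Degrader (5 and 7 with the replicate block), with a median log2 fold change of -0.06. Over all genes, 15.3% were called under Degrader and 3.58% under GDC0068 (30.7% and 17.8% with the block). MAFF, a small Maf partner of NRF2, rose by 0.45 (SE 0.0908, edgeR adjusted p = 0.0076), as did FTL, the ferritin light chain, by 0.45 (edgeR adjusted p = 0.0277), named after its values were seen. SRXN1 (sulfiredoxin) fell by 0.33 (edgeR adjusted p = 0.0101) and ABCC1, a glutathione conjugate exporter, by 0.25 (edgeR adjusted p = 0.00535). TKT and PGD, enzymes of the pentose phosphate pathway, fell by 0.31 (edgeR adjusted p = 0.00555) and 0.24 (edgeR adjusted p = 0.0243). Leaving out Degrader replicate 2 ended the calls of MAFF (log2 0.42), SRXN1 (-0.33), ABCC1 (-0.24), TKT (-0.24), PGD (-0.22) and FTL (0.50). Leaving out DMSO replicate 1 ended those of MAFF (0.44), SRXN1 (-0.22), ABCC1 (-0.23), PGD (-0.29) and FTL (0.42). The PGD and FTL calls were also lost without DMSO replicate 2 (-0.19 and 0.48) and without Degrader replicate 1 (-0.26 and 0.40), and the PGD call with DESeq2. Under GDC0068, TKT fell by 0.32 (edgeR adjusted p = 0.0177) and PGD by 0.27 (edgeR adjusted p = 0.0361), the 2 called of 20 (1 rose and 3 fell with the replicate block). Both calls were lost when any 1 of the DMSO and GDC0068 libraries was left out (TKT -0.34 to -0.31, PGD -0.33 to -0.22).

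**Figure D5:**
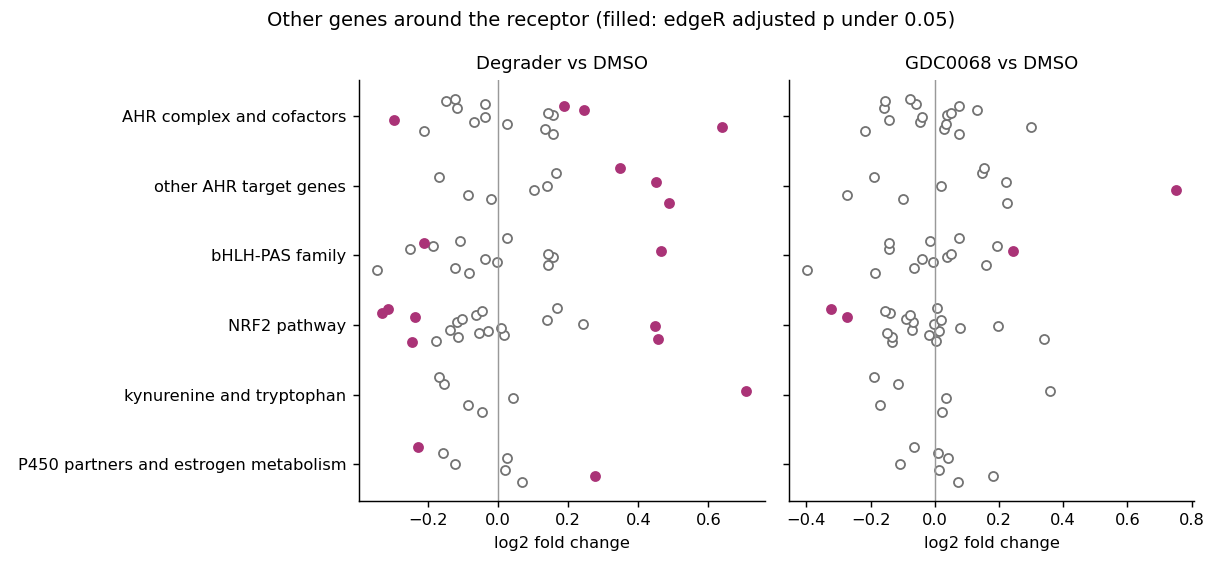
Log2 fold change (x axis) of each tested gene of the 6 lists (y axis), 1 point per gene, for Degrader against DMSO and GDC0068 against DMSO; filled points passed edgeR at an adjusted p under 0.05. KYNU at 0.71 and CUL4B at 0.64 are the highest filled points under Degrader, and HES1 at 0.75 is the highest under GDC0068.

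Among 6 tested genes of tryptophan and kynurenine metabolism, a source of AHR ligands, 1 rose under Degrader and none fell (1 and 2 with the replicate block). Over all genes, 15.3% were called under Degrader and 3.58% under GDC0068 (30.7% and 17.8% with the block). KYNU, kynureninase, which cleaves kynurenine, rose from 188 ± 19.2 to 306 ± 31.4 CPM (SD, n = 2), a log2 change of 0.71 (SE 0.0998, edgeR adjusted p = 0.00113). Its value under GDC0068 was 0.36 (edgeR adjusted p = 0.0713; 8.72e-08 with the replicate block). Under GDC0068 none of the 6 was called with edgeR or DESeq2, and with the replicate block 1 rose and 2 fell. At an unadjusted edgeR p under 0.05, 3 of the 6 passed, where 3972 of all 19902 genes did.

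Among 7 tested partners of P450 enzymes and genes of estrogen metabolism, 1 rose and 1 fell under Degrader (1 and 3 with the replicate block). The shares of all genes called were 15.3% under Degrader and 3.58% under GDC0068 (30.7% and 17.8% with the block). CYB5A, the cytochrome b5 that passes electrons to P450 enzymes, rose by 0.28 (edgeR adjusted p = 0.00905), a call lost without DMSO replicate 1 (log2 0.22) and without Degrader replicate 2 (0.25). SULT1A1, a phenol sulfotransferase, fell by 0.23 (edgeR adjusted p = 0.0319), a call lost without DMSO replicate 1 (log2 -0.18) and without either Degrader library (-0.27 and -0.19). Under GDC0068 none of the 7 was called with edgeR or DESeq2, and with the replicate block 1 rose and none fell. At an unadjusted edgeR p under 0.05, 1 of the 7 passed, where 3972 of all 19902 genes did.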

How the data were processed

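Raw counts per gene interval were deposited by the authors as 1 table for 6 PRO-seq libraries; they are whole numbers whose totals differ. The submitters' processing notes name cutadapt 1.14, Bowtie 1.2.2, SAMtools 1.3.1, HISAT2 2.2.1 and limma, and the builds hg38, GRCh38 and dm3, with no role or order. The counting tool, use of strand, treatment of duplicates, part of a gene counted and role of dm3 are not given in the sources used here. Without stated use of strand, reads of overlapping and antisense genes cannot be told apart. Interval starts are written counting from 1.

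Groups and replicate numbers came from the labels. Tests used edgeR 4.0.16 in R 4.3.3 (filterByExpr with a minimum count of 10 and a total of 15, which removed 431 intervals; TMM scaling; glmQLFit and glmQLFTest) over all 6 libraries, and p-values were adjusted by Benjamini-Hochberg over 19902 intervals, with calls under 0.05. The common biological coefficient of variation was 5.51%. Every edgeR adjusted p comes from this fit unless the block is named. CPM is scaled to TMM-adjusted library totals, and normalisation removes any change common to all genes. SD is over 2 libraries, SE is the absolute log2 fold change over the square root of F, and counting SE covers counting error only. With 2 libraries per arm, the tests borrow their spread from all genes.

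Libraries of the same replicate number deviated together from their arm means (r = 0.177 for DMSO and GDC0068, 0.22 for DMSO and Degrader and 0.204 for GDC0068 and Degrader, across 19902 genes, which are not independent), and the series describes 2 independent experiments, so blocked values are given beside the counts of calls and the p-values they change. The block lowered the coefficient of variation to 3.11%.

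The members and the 6 lists were chosen with earlier results of these data known. Genes were named by this rule: every member; in each list up to 5 called genes with the smallest adjusted p; HSP90AB1, ARNT2, NFE2L2, CYP1A2, ALDH3A1, UGT1A6 and a gene not reported here; intervals that overlap a member; and 3 genes closest in pattern to CYP1A1, CYP1B1 and TIPARP, by log2 CPM (prior count 2). Alternatives were DESeq2 1.42.0, library totals, upper quartile factors, no filter, only the libraries compared, the replicate block, robust estimation and leaving out each library. The unblocked test of Degrader against DMSO was also run on simulated counts. These held no difference between replicate numbers, so nothing is read from them about that difference or the blocked values.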

Additional observations from a re-analysis of the deposited data

How the results depend on the processing

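The counts of calls and the fold changes of members and named genes between arms were recomputed under 13 alternatives, and no called value reversed. The replicate term was not fitted without the block or on 4 libraries, and the pattern distances, interval ratios and motif counts have no alternatives. With the replicate block, Degrader against DMSO gave 6114 calls, GDC0068 against DMSO 3540 and Degrader against GDC0068 2065, of 19902 intervals. Among the 9 members the block gave 6, 3 and 4 calls in those comparisons. In the lists it gave 11, 6 and 4 for the complex and cofactors, 6, 6 and 5 for the other targets, 7, 5 and 3 for the bHLH-PAS family, 12, 4 and 6 for the NRF2 pathway, 3, 3 and 1 for kynurenine and tryptophan, and 4, 1 and 2 for P450 partners. DESeq2 gave 136 calls for Degrader against GDC0068, 0 members under Degrader, 0 bHLH-PAS genes under GDC0068 and 401 genes for the replicate term, which was added after seeing the data. The fit to the 4 libraries compared gave 23 calls for Degrader against GDC0068, 0 members under Degrader and 0 bHLH-PAS genes under GDC0068. Library totals gave 0 members under Degrader. Robust estimation gave 116 calls for Degrader against GDC0068 and 2 kynurenine and tryptophan genes under Degrader.

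Leaving out 1 library at a time gave 931 to 3217 calls for Degrader against DMSO (lowest without Degrader replicate 2), 37 to 546 for GDC0068 against DMSO (lowest without DMSO replicate 1), 5 to 63 for Degrader against GDC0068 (lowest without GDC0068 replicate 1) and 793 to 1404 for the replicate term (lowest without DMSO replicate 1). Members called under Degrader ranged from 0 to 1. List counts under Degrader ranged from 2 to 4 for the complex, 1 to 3 for the other targets, 1 to 2 for the bHLH-PAS family, 0 to 6 for the NRF2 pathway and 0 to 2 for P450 partners. Under GDC0068 they ranged from 0 to 0 for the bHLH-PAS family, 0 to 2 for the NRF2 pathway and 0 to 1 for kynurenine and tryptophan. Fewer libraries enter these fits; the cause of the other shifts was not tested. The lone library of an arm is there assumed to vary like the other arms. Without the block it is set against libraries of both experiments, so the difference between experiments enters the fold change.

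Depth limits CYP1A1 most: its lowest count was 104. With 2 experiments, the spread of a ratio between experiments is known only from 2 values.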
